A study of Mus musculus with 10 samples.

Results

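Mir183, Mir96 and Mir182 form a cluster of 3 neighbouring microRNA (miRNA) hairpins that is transcribed strongly in photoreceptors, the light-sensing cells of the retina. Its members here were both arms of each hairpin, mmu-miR-183-5p, mmu-miR-183-3p, mmu-miR-96-5p, mmu-miR-96-3p, mmu-miR-182-5p and mmu-miR-182-3p, written without the species prefix from here on. The rule takes them from the deposited table by name, 6 of its 1061 mature miRNAs, and was written with earlier results of these data known. The study sequenced small RNA of whole retina in 5 C57BL/6J mice, wild type and at postnatal day 34. A plastic goggle with a -20 D lens, which is used to induce myopia, had been worn over 1 eye for 10 days from postnatal day 24, and the other eye of the same animal had no lens. All 10 libraries, left and right retina of mice 61, 64, 65, 66 and 68, came from animals treated in this way, and the labels do not name the side of the lens. Left and right retina were therefore compared within each animal, with no side taken as the treated one.

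A miRNA is cut from a hairpin precursor, and 1 arm of the hairpin usually becomes the strand that guides repression of messenger RNAs while the other arm is mostly degraded. Target choice depends on the seed, bases 2 to 8 of the mature strand. The cluster is made as a single long transcript in sensory cells, photoreceptors and hair cells of the inner ear among them, and mutations in the seed of miR-96 cause hearing loss in mice and humans. In mouse retina the cluster is known to rise in light and fall in the dark, and its loss leads to defects of photoreceptor synapses and to retinal degeneration.

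The mature sequences were found for 6 of the 6 members in RefSeq (GRCm38.p6) and are shown because their seeds group the guide arms and set them apart from the opposite arms. They are written 5′ to 3′ with the seed in capitals. The guide arms are
miR-183-5p: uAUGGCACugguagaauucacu
miR-96-5p: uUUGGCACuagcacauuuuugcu
miR-182-5p: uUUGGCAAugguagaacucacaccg
and the opposite arms are
miR-183-3p: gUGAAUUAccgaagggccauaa
miR-96-3p: cAAUCAUGuguagugccaauau
miR-182-3p: gUGGUUCUagacuugccaacu
The seeds of the 3 guide arms differed at the first or the last base only. Counted from 1 at the 5′ end, the seed of miR-96-5p differed from that of miR-183-5p by A2U, and the seed of miR-182-5p differed from that of miR-96-5p by C8A. Compared position by position over 22 bases, miR-183-5p and miR-182-5p were identical at 18 (81.8%), and miR-183-5p and miR-96-5p at 13 (59.1%). Over 23 bases, miR-96-5p and miR-182-5p were identical at 12 (52.2%), so that miR-96-5p shares the seed region with its neighbours but little of the rest. The opposite arms had unrelated seeds and were identical at 7 positions in each pair (31.8% to 33.3%). Among the 909 miRNAs of the table with a RefSeq sequence, miR-96-5p and miR-182-5p were the 2 with UUGGCA at bases 2 to 7. Over all 1679 mature mouse sequences of RefSeq, the whole seed of miR-96-5p was shared by miR-1271-5p and that of miR-96-3p by miR-3475-5p, neither of which was analysed here.

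The hairpins are shown because they place each pair of arms, in capitals, on its precursor.
Mir183: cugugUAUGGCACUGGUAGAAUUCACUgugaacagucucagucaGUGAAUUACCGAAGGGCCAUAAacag
Mir96: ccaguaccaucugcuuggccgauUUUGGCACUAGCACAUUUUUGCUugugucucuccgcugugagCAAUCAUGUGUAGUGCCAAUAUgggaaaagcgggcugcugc
Mir182: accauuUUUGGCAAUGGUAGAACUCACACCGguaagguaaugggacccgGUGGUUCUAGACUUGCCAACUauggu
All 3 lie on the minus strand of chromosome 6 in GRCm38, Mir183 at chr6:30169668-30169737, Mir96 at chr6:30169446-30169551 and Mir182 at chr6:30165918-30165992. Mir183 and Mir96 are 116 bases apart, and Mir182 follows 3453 bases further on. In RefSeq the 3 hairpins lie inside the long non-coding RNA gene Mirc35hg (chr6:30158640-30174125, minus strand), whose start is 4388 bases upstream of Mir183. Apart from genes whose names start with Mir, which were not counted, GENCODE M21 lists 0 genes over the span of the hairpins. Whether the hairpins fall in exons or introns of Mirc35hg is not given in the annotation used here. On the opposite strand, the retinal long non-coding RNA Rncr4 (chr6:30172893-30175126) overlaps the first 1233 bases of Mirc35hg. Downstream lies Nrf1, which codes for a transcription factor of nuclear genes for mitochondrial proteins and ends 12459 bases from Mir182. Whether other genes lie between them was not examined.

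**Figure D1:**
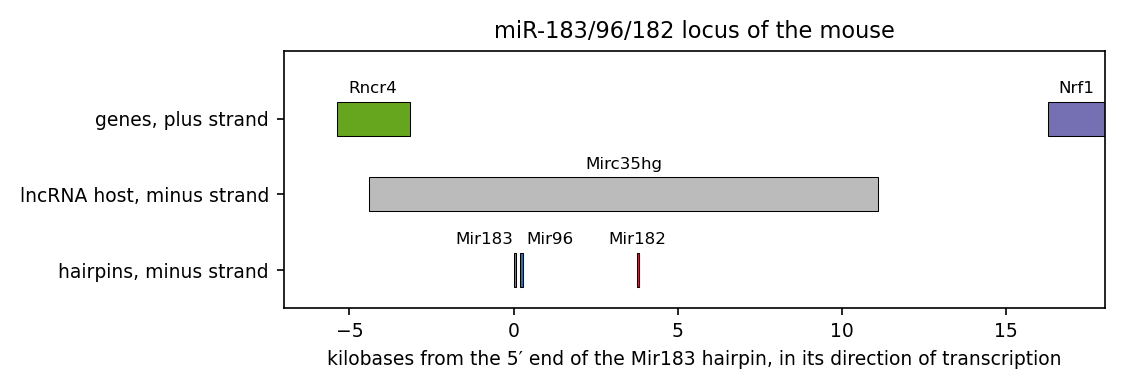
Map of the locus, with the distance from the 5′ end of the Mir183 hairpin in kilobases on the x axis, in its direction of transcription, and genes by strand in rows; Nrf1 runs on past the right edge. Mir183 and Mir96 sit 116 bases apart, and Mir182 lies 3453 bases further downstream within Mirc35hg.

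The deposited values were normalised read counts with the same total in each library, from 17312269 to 17312436. At 180 ranks above 0, ranks 1 and 3 among them, the same value stood in every library. At these ranks a value reports only where a miRNA ranks among all, and the number of reads behind any value is unknown. Between 162 and 239 miRNAs were listed at 0 in a library, and none of the members was. The miRNAs of retinal neurons miR-181a-5p and miR-124-3p were abundant in every library, at 3689310 and at 76000 to 88655 normalised reads. Whole retina does not separate photoreceptors from other cells, and fewer cells of a type and less RNA per cell cannot be told apart. 2 libraries held more of a marker list of other tissues than the rest. The lens and cornea list summed to 22626 in the right retina of mouse 65 and at most 2354 in the other right retinas, and the muscle list to 1742 in the left retina of mouse 68 and at most 381 in the other left retinas. Almost all of the 22626 was miR-184-3p, at 22384, while miR-203-3p, the next of that list, stayed at 194 to 228 in all libraries. Most of the 1742 was miR-133a-3p, at 1596.

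The guide arms of miR-182 and miR-183 were among the 3 most abundant miRNAs of every library. miR-182-5p held rank 1 with 9840430 normalised reads in each of the 10 libraries. miR-183-5p held rank 3 with 689415 normalised reads in each of the 10 libraries. Rank 2 belonged to miR-181a-5p of the inner retina, and the next below were let-7a-5p and miR-181b-5p, both lower than miR-183-5p in 10 of 10 libraries. No spread can be given for miR-182-5p and miR-183-5p, since ranks 1 and 3 have a single value over all libraries. The value of rank 2 is 2.67-fold below that of miR-182-5p, and the value of rank 4 is 1.67-fold below that of miR-183-5p, so that changes smaller than the gap between the reads of neighbouring ranks cannot be seen in these data. The 6 members took 60.97% to 61.13% of the normalised total of a library, which is set by these 2 ranks. A read covers a whole mature miRNA, so that no length correction enters, but adapter ligation favours some sequences, and ratios between miRNAs are ratios of normalised reads and not of molecules.

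miR-96-5p, the guide arm whose seed mutations cause deafness, was the member that varied most between libraries. Its normalised reads in left retina were 49233 in mouse 61, 41158 in mouse 64, 20982.5 in mouse 65, 26689.5 in mouse 66 and 38949 in mouse 68. In right retina they were 34261 in mice 61, 64 and 68, 26689.5 in mouse 65 and 24916 in mouse 66. The left libraries spanned a wider range than the right ones and enclosed it, and mice 65 and 66 were low in both eyes. Its rank moved between 19 and 29, where a step of 1 rank at the median rank of 22 is a step of 13.7% in value. The SD of its log2 value over 10 libraries was 0.37, above that of 72.7% of the 484 miRNAs tested, and the median of these was 0.28. Depending on the library, miR-183-5p exceeded miR-96-5p by 14.0 to 32.9-fold. The miRNAs with the nearest mean levels were miR-16-5p (higher in 8 of 10 libraries) and miR-92a-3p (higher in 5) above it, and miR-434-3p and miR-181d-5p (each lower in 6) below it, so that its place among these neighbours was not fixed.

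The opposite arms were less abundant than the guide arms and varied less than miR-96-5p. For miR-183-3p, the most abundant of them, normalised reads in left retina were 3671 in mice 61 and 66, 4352 in mouse 64, 4013 in mouse 65 and 4642 in mouse 68. In right retina they were 4197 in mouse 61, 4013 in mice 64 and 66, 3830 in mouse 65 and 4642 in mouse 68. Mouse 68 was the highest on both sides, and the sides overlapped. miR-301a-3p above and miR-149-5p below it in mean level were each higher than miR-183-3p in 5 libraries and lower in 5. The further neighbours by mean were miR-30a-3p, which was higher in 10 of 10 libraries, and miR-184-3p, a miRNA of lens and cornea, which was higher in 1.

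For miR-182-3p, the discarded strand of the most abundant hairpin, normalised reads in left retina were 336 in mouse 61, 331 in mouse 64, 266 in mouse 65, 345 in mouse 66 and 299.99 in mouse 68. In right retina they were 277 in mouse 61, 296 in mouse 64, 282 in mouse 65, 263 in mouse 66 and 270 in mouse 68. Of the left libraries 4 were above every right library, and the left library of mouse 65 was not. On the left, miR-96-3p had 241 normalised reads in mouse 61, 175 in mouse 64, 153 in mouse 65, 165 in mouse 66 and 159 in mouse 68, and in right retina 157 in mice 61 and 68, 181 in mouse 64, 164 in mouse 65 and 169 in mouse 66. The left library of mouse 61 stood apart from the other 9, which lay between 153 and 181.

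The order of the members was the same in 10 of 10 libraries, from miR-182-5p over miR-183-5p, miR-96-5p, miR-183-3p and miR-182-3p down to miR-96-3p. Each neighbour in this order was separated from the next over all libraries. The closest pair was miR-182-3p, at 262.9 or more, and miR-96-3p, at 241 or less, with a ratio of 1.39 to 2.09 within a library. The order of the opposite arms was not that of the guide arms, since miR-183-3p exceeded miR-182-3p by 10.6 to 17.2-fold while miR-182-5p exceeded miR-183-5p by 14.3-fold.

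**Figure D2:**
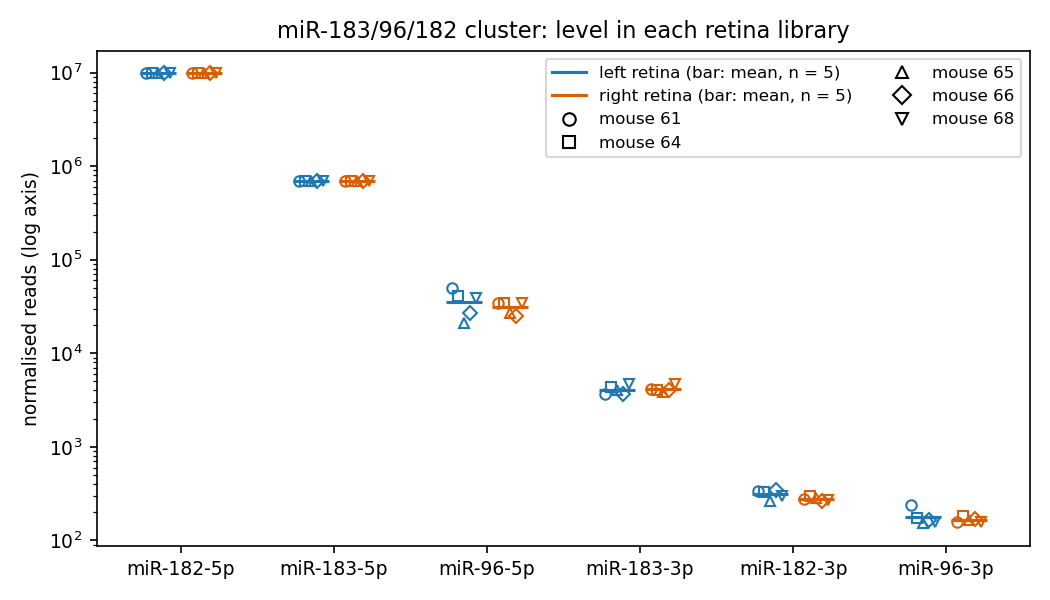
Normalised reads of the 6 members (log axis) in each library, with left and right retina side by side, 1 symbol for each mouse and a bar at the mean of 5 libraries. The 6 members keep their order in all libraries, miR-182-5p and miR-183-5p have 1 value each, and miR-96-5p spreads from 20982.5 to 49233.

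All 3 hairpins favoured the 5p arm, and miR-182 did so by far more than the others. On the log2 scale of 5p over 3p, each with 1 added, the ratio of miR-182 was 14.93 ± 0.15 on the left against 15.11 ± 0.06 on the right (SD, n = 5). The ratio of miR-96 was 7.58 ± 0.36 against 7.52 ± 0.25, and that of miR-183 was 7.41 ± 0.15 against 7.38 ± 0.11 (SD, n = 5). Among the 237 hairpins with both arms in the table and the higher arm at a mean of at least 10, the median arm ratio was 21.8-fold in either direction. miR-182 had the highest ratio of these in either direction, miR-96 ranked 52 and miR-183 ranked 55, and the 5p arm was the higher one in 126 of the 237. Right minus left, the log2 ratio of miR-182 was 0.18 ± 0.17 (SD over 5 mice) and higher on the right in 4 of 5 mice (exact sign-flip permutation test over mice, two-sided, p = 0.125). For miR-96 it was -0.05 ± 0.22 and for miR-183 -0.03 ± 0.13 (SD over 5 mice), with p = 0.625 in each by the same exact test. The smallest p this test can give with 5 mice is 0.0625. Because miR-182-5p and miR-183-5p did not vary, the differences of their hairpins are those of the 3p arms with the sign turned.

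**Figure D3:**
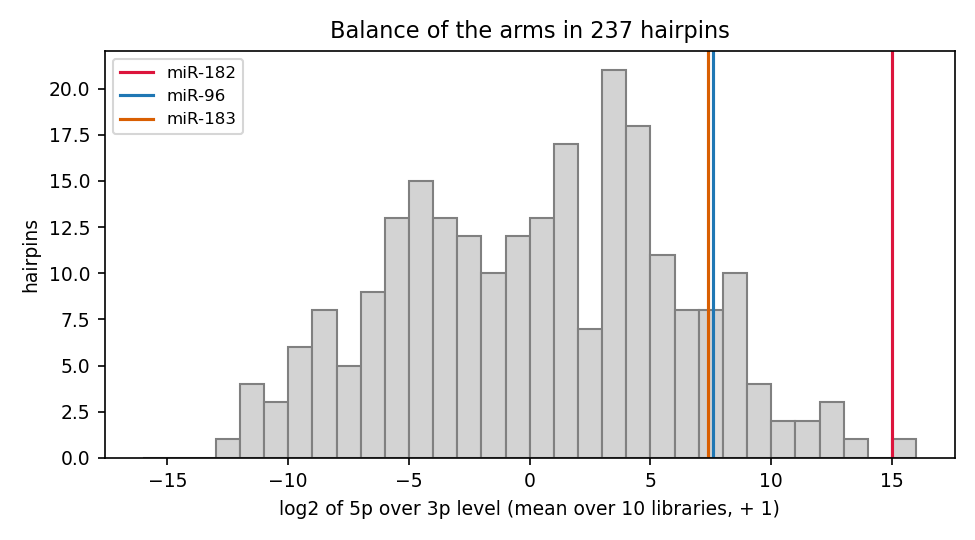
Histogram of the balance of the arms in 237 hairpins, with the log2 ratio of 5p over 3p (from means over 10 libraries, with 1 added) on the x axis and the number of hairpins on the y axis. The lines mark miR-183 and miR-96, close together on the 5p side, and miR-182, in the highest bin of all.

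Comparing the retinas of each mouse asks whether a member differed between right and left in the same direction over the mice. It cannot test the lens, since the side of the lens is unknown and lenses on opposite sides in different mice would cancel. No member passed the test of right minus left. Values were fitted as log2(value + 1) with limma over the 484 miRNAs with a mean of at least 10, with mouse as a block and Benjamini-Hochberg adjustment over all of them. Of all tested miRNAs 0 (0.0%) were past an adjusted p of 0.05. miR-182-5p and miR-183-5p, with 1 value each, could not show a difference, so that the test bears on the other 4 members, of which 0 passed. At an unadjusted p under 0.05 there were 12 of the 484 (2.48%) and 0 of these 4 members.

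Among the members that varied, miR-182-3p had the largest fitted log2 fold change over all 5 mice, with 315 ± 32.3 normalised reads on the left against 277 ± 12.4 on the right (SD, n = 5). This log2 fold change, right minus left, was -0.18 (SE 0.09, 95% interval from -0.40 to 0.05, limma adjusted p = 0.958), and 4 of 5 mice had the lower value on the right. miR-96-5p averaged 35402 ± 11411 on the left against 30878 ± 4675 on the right (SD, n = 5), and again 4 of 5 mice had the lower value on the right. Its log2 fold change was -0.14 (SE 0.11, 95% interval from -0.42 to 0.13, limma adjusted p = 0.958). A value lower on the right in at least 4 of 5 mice was found in 2 of the 4 varying members and in 86 of the 484 tested miRNAs (17.8%), and a value higher on the right in at least 4 mice in 0 of the 4 and in 72 of the 484 (14.9%). In mouse 65 both were higher on the right, by 0.35 for miR-96-5p and 0.08 for miR-182-3p on the log2 scale. Without mouse 65 the log2 fold changes were -0.27 and -0.25, and 0 miRNAs passed. Without mouse 61 that of miR-96-5p was -0.05.

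miR-183-3p and miR-96-3p differed by less. For miR-183-3p the log2 fold change was 0.03 (SE 0.07, limma adjusted p = 0.978), with the right retina higher in 2 mice, lower in 2 and equal in 1. For miR-96-3p it was -0.09 (SE 0.13, limma adjusted p = 0.971). The right retina of mouse 61 was lower by 0.62 on the log2 scale, and the differences of the other mice lay between -0.02 and 0.10. Without mouse 61 the log2 fold change of miR-96-3p turned to 0.042 and that of miR-183-3p to -0.014. In mouse 61 the left library also had the lowest trend of log2 value with GC content of the 10, at -0.15 per 10 points of GC, and miR-96-3p has the lowest GC content of the members, 36.4% against a median of 47.8% over the tested miRNAs. With GC trends removed the log2 fold change of miR-96-3p was -0.02. miR-96-5p has a GC content of 39.1%, and its log2 fold change was -0.09 with GC trends removed, against -0.14 in the main fit. Its highest value was in the same left library of mouse 61. Its lowest was in the left library of mouse 65, which had the highest GC trend of the 10, at 0.12. The part of GC content in these values was not tested. The 95% intervals of the 4 varying members allowed folds from 0.747 to 1.16, right over left. Over the 6 members the median log2 fold change was -0.05, with 1 above 0, 3 below and 2 at 0, beside -0.01 over the 484 tested miRNAs, of which 224 were above 0, 253 below and 7 at 0. For 0 of the 4 varying members did the left and right libraries not overlap, beside 2 of 484 (0.413%) with the right lower and 2 (0.413%) with the right higher.

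**Figure D4:**
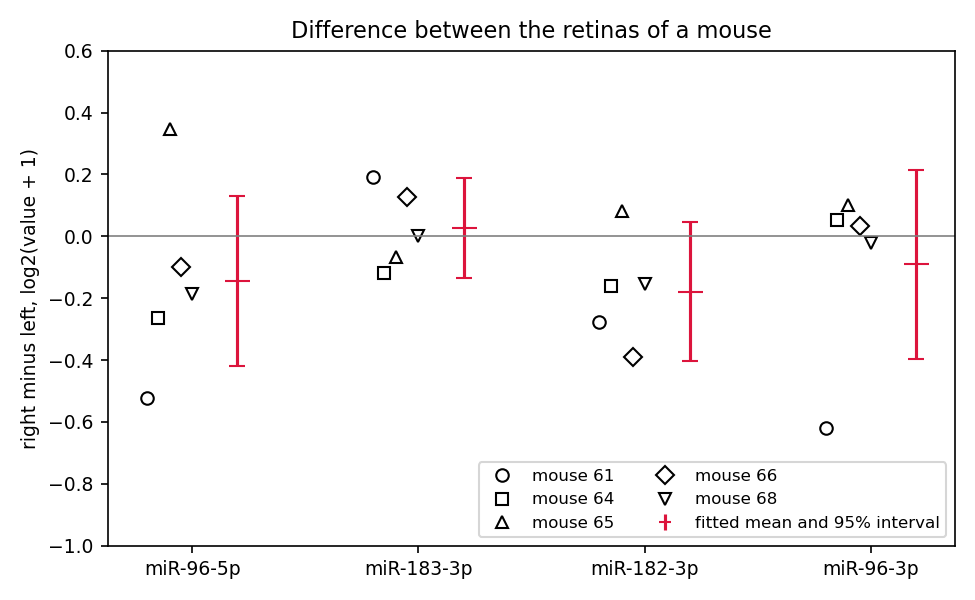
Right minus left difference of log2(value + 1) for the 4 members that varied, with 1 symbol for each mouse and the fitted mean with its 95% interval in red. Every interval crosses 0; mouse 61 is the lowest for miR-96-5p and miR-96-3p, and mouse 65 is above 0 for miR-96-5p and miR-182-3p.

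Both retinas of a mouse also show whether a member differed between animals by more than between the eyes of an animal. miR-96-5p was the member nearest to this. The mean of its eyes was 41747 normalised reads in mouse 61, 37710 in mouse 64, 36605 in mouse 68, 25803 in mouse 66 and 23836 in mouse 65. The means on the log2 scale spanned 0.80, or 1.74-fold, beside a median span of 0.46 over the tested miRNAs. In the same fit, by limma's F test of the mouse terms, miR-96-5p had an unadjusted p of 0.0127 and an adjusted p of 0.182, and did not pass. At an adjusted p under 0.05 there were 8 of the 484 miRNAs (1.65%) and 0 of the 4 varying members, and at an unadjusted p under 0.05 there were 68 (14.0%) and 1 member. With GC trends removed, an alternative chosen after the data were seen, miR-96-5p passed with an adjusted p of 0.0406 by limma and a span of 0.70. The other 3 varying members had spans of 0.19 to 0.30 and adjusted p from 0.539 to 0.908 by limma. For miR-183-3p, the span of 0.27 fell to 0.12 without mouse 68. The sum of the lens and cornea list, almost wholly miR-184-3p there, was high in the right retina of mouse 65 and not in the left. The left retina of mouse 65 had the lowest miR-96-5p of all libraries. The part of lens and cornea tissue in the values of miR-96-5p was not tested.

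The miRNAs whose pattern over the 10 libraries was most like that of miR-96-5p were miR-192-5p (Pearson r of log2 values 0.96, Spearman rho 0.93), miR-384-3p (r 0.94, rho 0.92) and miR-191-3p (r 0.91, rho 0.86). These are descriptions, since libraries of 1 mouse are not independent and the 3 were the highest of 478 comparisons. miR-192-5p, which is best known from liver, kidney and gut, ranged from 5811 to 9068 normalised reads. With the mean of each mouse taken off, the values of r were 0.83, 0.92 and 0.86. They come from the same libraries that chose these miRNAs, and each rests on 1 difference between the eyes for each of 5 mice. The most opposite pattern was that of miR-129-5p, a miRNA of neurons, at 2578 to 3830 normalised reads (r -0.98, rho -0.97, and r -0.94 within mice), which was named after its values were seen. Between mice, limma's adjusted p was 0.365 for miR-192-5p and 0.402 for miR-129-5p.

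The opposite arms had other companions over the 10 libraries. For miR-182-3p these were miR-551b-3p (r 0.90, rho 0.88), miR-18a-5p (r 0.83, rho 0.78) and miR-369-5p (r 0.82, rho 0.90). For miR-183-3p they were miR-873a-3p (r 0.82, rho 0.85), miR-10a-5p (r 0.81, rho 0.92) and miR-486b-5p (r 0.78, rho 0.82). For miR-96-3p they were miR-29a-3p (r 0.86, rho 0.69), miR-369-5p (r 0.85, rho 0.59) and miR-190a-5p (r 0.83, rho 0.29), and r and rho lay furthest apart for the last of these. Among the members themselves, miR-96-5p and its opposite arm had an r of 0.63 (rho 0.48), miR-96-5p and miR-182-3p of 0.55 (rho 0.62), and miR-96-3p and miR-182-3p of 0.57 (rho 0.55). With the mean of each mouse taken off, r was 0.77, 0.74 and 0.48 for these pairs in the same order. miR-183-3p went with none of the other varying members, with r from -0.49 to 0.24 over the libraries. With the mean of each mouse taken off its r with them was from -0.76 to -0.55. With the mouse means off, each r rests on 1 difference between the eyes for each of 5 mice. For pairs with miR-96-3p it rests mostly on mouse 61, where right minus left was -0.62 on the log2 scale, against -0.02 to 0.10 in the other mice. These values of r are descriptions only.

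miR-204 and miR-211 are also known to respond to light in mouse retina. miR-204-5p was at 203500 normalised reads in all 10 libraries. miR-211-5p was at 14434, 10406, 9068, 6309 and 20982.5 in the left and at 15330, 12364, 12948, 9745 and 17043 in the right retinas of mice 61, 64, 65, 66 and 68. Its mouse means were highest in mouse 68 and lowest in mouse 66, with a limma adjusted p between mice of 0.152. With miR-96-5p it had an r of 0.58 (rho 0.59) over the 10 libraries and of 0.09 within mice. In these 5 animals the likeness thus lay more between animals than between eyes. Its right retina was higher in mouse 65, as for miR-96-5p, and also in mice 61, 64 and 66, where miR-96-5p was lower.

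In a list of 13 retinal and neuronal miRNAs that includes miR-96-5p, 3 lay above 0, 8 below and 2 at 0 in right minus left retina, beside 224, 253 and 7 of all 484. The median was -0.02 on the log2 scale, and 0 passed the test. Between mice 1 of the 13 passed, beside 8 of the 484 (1.65%). It was the neuronal miR-128-3p, named after its values were seen, with a limma adjusted p of 0.00390 and a span of 1.42 on the log2 scale. The pigment epithelium list summed to 209905 to 224593 normalised reads in left and to 213349 to 220695 in right retina. Most of this sum is miR-204-5p, fixed at 203500 in every library, so that its narrow range is set by that value. Of the 4 miRNAs of this list, 3 lay above 0, 0 below and 1 at 0 in right minus left retina. Their median was 0.28 on the log2 scale, and 0 passed the test. The endothelial list summed to 7870 to 8926 in left and 7427 to 9110 in right retina. The erythroid list summed to 2604 to 3003 and 2555 to 4420, and the connective tissue list to 259 to 404 and 306 to 438. Of the marker miRNAs miR-200c-3p, miR-1a-3p and miR-206-3p were at 0 in at least 1 library. The part of these other cells in the values of the members was not tested.

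**Figure D5:**
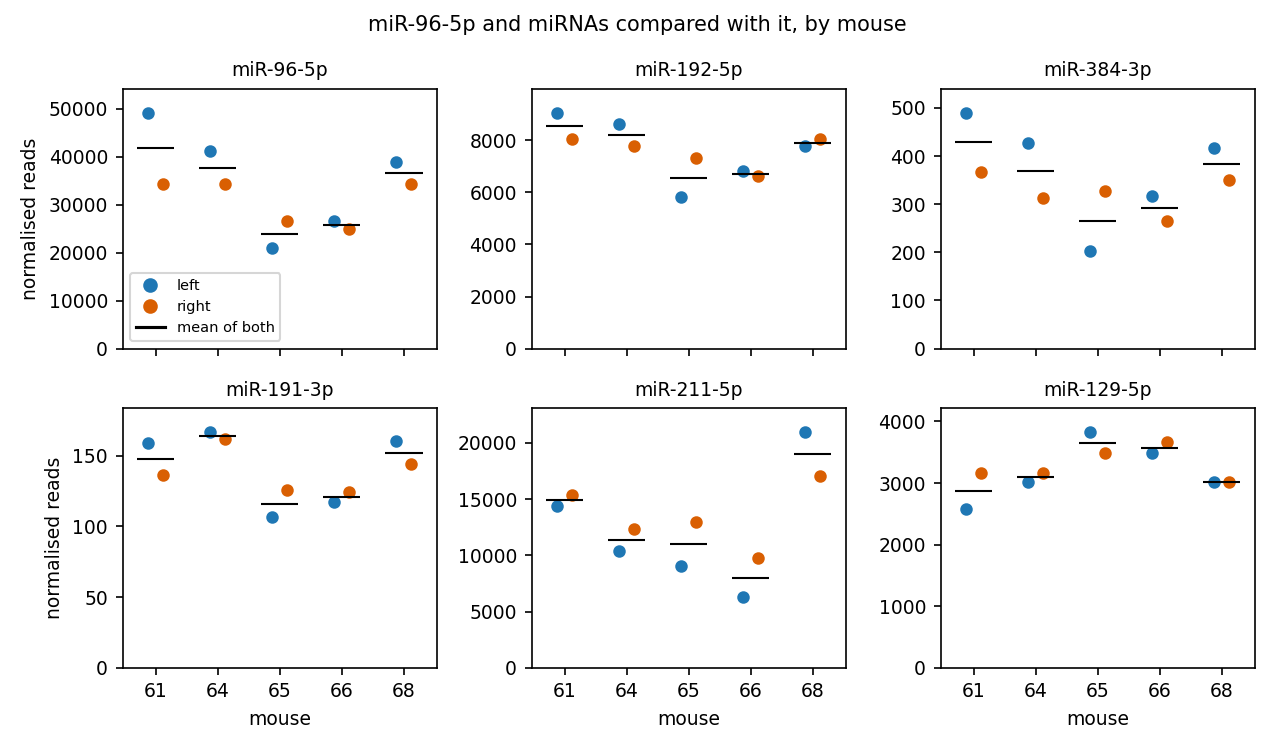
Normalised reads of miR-96-5p, its 3 most similar miRNAs, the light-responsive miR-211-5p and the most opposite miRNA, miR-129-5p, by mouse, with left and right retina as points and their mean as a line; each panel has its own axis from 0. Mice 65 and 66 are low for miR-96-5p and its companions and high for miR-129-5p.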

How the data were processed

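The authors' deposited table holds a signal derived from read counts, called normalised counts in its name, for 1061 mature miRNAs in 10 libraries. Per the labels' protocols, 50 ng of small RNA went into TruSeq Small RNA libraries. The submitters' processing notes name Partek, Bowtie, GRCm38 and mm10. For trimming, miRNA annotation and the normalisation step, nothing is given in the sources used here. Equal sorted values fit quantile normalisation, so depth is unknown and no counting intervals were given. It had 0 columns without a matching label.

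Side and mouse came from the labels. miRNAs with a mean of at least 10 (484) entered on a log2(value + 1) scale, where changes of low miRNAs come out too small, and were modelled in R 4.3.3 by limma 3.58.1 with side and mouse as terms, a mean-variance trend, two-sided tests and a threshold of 0.05 after Benjamini-Hochberg adjustment. A number marks 1 animal per the labels; the deviations of the pair from their side's mean correlated across miRNAs, which are not independent, by 0.0893 to 0.382, against a median of -0.0824 and a span of -0.338 to 0.355 for eyes of different mice, so that both overlap. For single values an exact sign-flip permutation test over mice was used. Alternatives were other pseudocounts, no filter, median-ratio scaling, no trend, no mouse block and leaving out each mouse, and, added after the data were seen, removal of GC trends and of miRNAs identical in all libraries. GC content was known for 424 tested miRNAs (87.6%).

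The named miRNAs were all members, those sharing a member's seed, the 3 with the highest Pearson r for each varying member, the 2 nearest in mean level on each side of members with a mean of at least 1000, and the 2 highest of each list. The members and lists were chosen with earlier results of these data known. Positions are from RefSeq and GENCODE M21 on GRCm38, counted from 1; the ends in the deposited table lay 1 base further. The p-values of right minus left and of the sign-flip test measure how right and left differences vary over these 5 animals. The F tests of the mouse terms instead set mice against the remaining variation within mice, where left and right retina serve as replicates. A lens effect could be part of that variation and was not tested.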

Additional observations from a re-analysis of the deposited data

Results flagged for a closer look

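In 3 of 42 groups of 5 libraries, 1 library stood far from the other 4, where chance alone gives about 1 in 20 such groups. Among left retinas, mouse 61 had 241 normalised reads of miR-96-3p, and the other 4 mice had 153 to 175. The muscle marker list summed to 1742 normalised reads on the left in mouse 68, and to 295 to 381 in the other mice. The lens, cornea and surface epithelium list summed to 22626 on the right in mouse 65, of which miR-184-3p made 22384, and to 2122 to 2354 in the other mice.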

How the results depend on the processing

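Of 180 values computed under alternatives, 170 were labelled as unchanged. For a count of miRNAs that passed, this means equal or within 1.5-fold, and otherwise the same direction and side of the threshold. Many of the 180 had little room to change. The differences of miR-182-5p and miR-183-5p were 0 except under 2 alternatives that change the values themselves. They were 0.0075 in each with median-ratio scaling, and 0.013 and 0.047 with GC trends removed. Spans between mice have no direction, and the sign-flip test cannot give a p under 0.0625 with 5 mice. In right minus left retina, 0 miRNAs passed under all 13 alternatives, with 0 without the mouse block too, and with 7 to 62 miRNAs at an unadjusted p under 0.05, the most without mouse 65. The differences of miR-96-5p and miR-182-3p stayed below 0 under every alternative run, from -0.27 to -0.05 and from -0.25 to -0.13 when each mouse was left out. Without mouse 61, miR-183-3p turned to -0.014, miR-96-3p to 0.042 and the arm ratio of miR-183 to 0.014; without mouse 64, the arm ratio of miR-96 turned to 0.012. With each mouse left out, miR-183-3p ranged from -0.014 to 0.063, miR-96-3p from -0.14 to 0.042, the arm ratio of miR-183 from -0.063 to 0.014 and that of miR-96 from -0.13 to 0.012. The share of the cluster, right minus left, was -0.03 percentage points. miR-182-5p and miR-183-5p, the same in every library, set the level of the share and not this difference. The difference comes from the varying members, of which miR-96-5p is by far the highest, and is not separate from that of miR-96-5p. With miR-182-5p and miR-183-5p left out of members and total, it was -0.066 (exact sign-flip test over 5 mice, p = 0.25 in each). Between mice 8 miRNAs passed, 10 with median-ratio scaling, 9 with GC trends removed, 12 without the miRNAs identical in all libraries, 5 with no mean-variance trend and 3 to 7 with a mouse left out (5 without mouse 61, 4 without 64, 7 without 65, 4 without 66, 3 without 68), where fewer samples enter. miR-96-5p passed only with GC trends removed (span 0.70, limma adjusted p = 0.0406), and otherwise had an adjusted p of 0.0987 to 0.441; the cause was not tested. Unknown depth limits all values, and rank normalisation hides changes of miR-182-5p and miR-183-5p.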
